A study of Mus musculus with 9 samples.

Results

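The heat shock and chaperone genes examined here are 44 named genes, of which 40 had an array row whose only gene symbol was that gene. They were chosen by name as 24 cytosolic or nuclear chaperones, 11 chaperones of the endoplasmic reticulum (ER), 4 mitochondrial chaperones and 5 transcription factors of the stress responses, and 22, 10, 4 and 4 of these were measured. Dnaja1, Hsp90ab1, Hsf1 and Pdia4 were not analysed here. Where a gene had several rows, the row of highest mean was used, as for all 22180 genes tested.

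The values came from γδ T cells of C57BL/6 mice, T cells whose receptor pairs a γ with a δ chain, in 3 subsets with 3 Affymetrix Mouse Gene 2.0 ST arrays each. Intraepithelial lymphocytes (IELs) were taken from the epithelium of the small intestine, and Naive-like and Type-1 cells from peripheral lymph nodes. No genetic change, treatment, age or sorting gate of the subsets is given in the sources used here. Per the labels' protocols, gut pieces were shaken at 37 °C in buffer holding a reducing agent and EDTA before a Percoll gradient, whereas lymph nodes were mashed and filtered. Subset, tissue and way of release therefore differed together in each comparison with IELs and cannot be told apart. The labels name biological replicates without saying whether an array was 1 mouse or a pool, so p-values reflect only how much these samples vary. Cd3d, Cd3e and Cd3g, which encode signalling chains of the T-cell receptor complex, lay between 10.06 and 12.32 on all 9 arrays. Their differences between subsets, with those of Ptprc, Zap70 and Lat, are counted with the other markers below. Trdc and Tcrg-C1, also listed as γδ T-cell markers, had no array row with that gene as its only symbol.

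Chaperones help proteins fold and keep unfolded chains from clumping. In the cytosol the Hsp70 family works with J-domain proteins, nucleotide exchange factors and the Hsp90 family, and heat or other protein damage raises many of these genes through heat shock factors, which bind repeats of the letters GAA and their complement TTC. The ER and the mitochondria hold their own sets, and unfolded protein in the ER raises its chaperones through Xbp1, Atf4 and related factors. IELs are known for a state that is activated yet resting.

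All values are log2 array values after robust multi-array averaging (RMA), so a difference of 1 is 2-fold. Differences carry their standard error (SE) from a limma fit of all 9 arrays, n = 3 arrays per subset throughout, and a gene was called higher or lower at a Benjamini-Hochberg adjusted p under 0.05 over the 22180 genes. An array level depends on the probes, so levels of different genes were not set against each other. In these bulk samples, fewer cells of a type and less RNA per cell cannot be told apart.

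Of the 40 members measured, 13 were higher in IELs than in the Naive-like subset and 0 were lower. Over all genes tested, limma called 3.57% higher and 1.62% lower in that comparison. The median difference of the members was 0.51, against -0.01 for all genes. The same count, 13 higher and 0 lower, was found for IELs against Type-1 cells, where 3.73% of all genes were higher and 1.41% lower and the members' median difference was 0.52, against -0.03 for all genes. The comparisons share the 3 IEL arrays, so the second does not stand apart from the first. On the IEL arrays, 11 of 16 markers of enterocytes and epithelium and 7 of 18 immediate early genes were higher as well, and their part in these differences was not tested. Between the lymph node subsets no member was called in either direction by limma. In that comparison 0.284% of all genes were called, 1 member had an unadjusted p under 0.05 against 6.48% of all genes, and the members' median difference was -0.01, against 0.03 for all genes.

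The cytosolic chaperones gave most of these calls. Against Naive-like cells 10 of 22 cytosolic, 1 of 10 ER and 2 of 4 mitochondrial chaperones were higher in IELs, with median differences of 0.63, 0.41 and 0.37. Against Type-1 cells the counts were 9 of 22, 2 of 10 and 1 of 4, with medians of 0.70, 0.47 and 0.17. Of the 4 transcription factors none was called against Naive-like cells and 1 against Type-1 cells. Whether the shares differ between compartments was not tested.

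**Figure D1:**
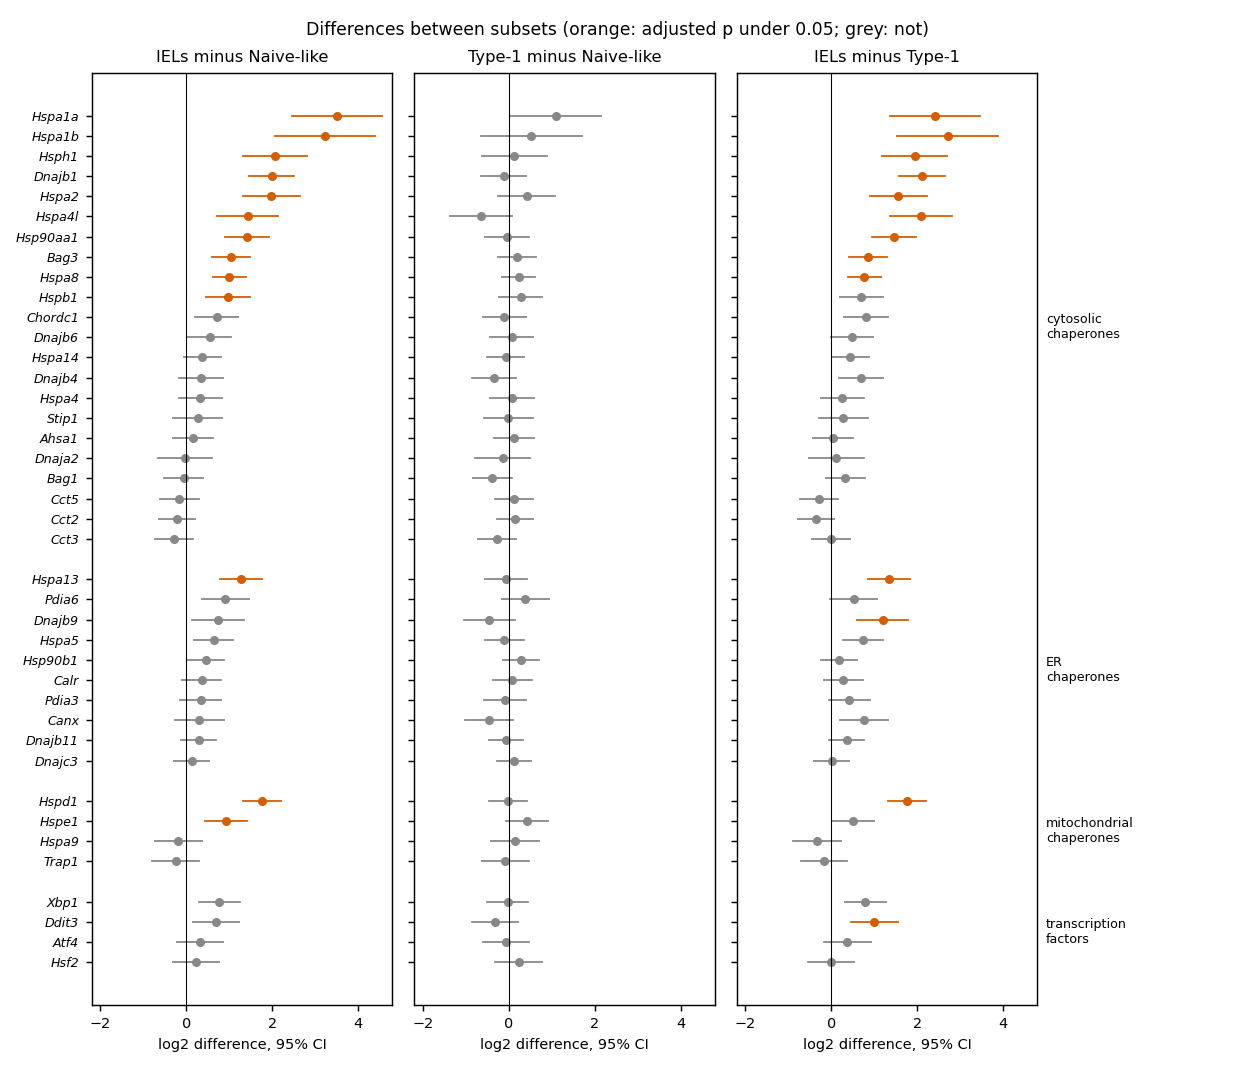
Differences between subsets on the log2 scale (x axis) for the 40 measured members (y axis), as points with 95% confidence intervals from the limma fit, grouped by compartment. Orange marks an adjusted p under 0.05, which 13 members reached on the higher side in each comparison with IELs and none reached for Type-1 minus Naive-like cells.

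The description of replicate 3 of each subset carries a date code, and those of the other 6 arrays do not. In all called members of both comparisons the IEL arrays lay above the other subset without overlap, so any split of the arrays gives the same sign, and only the sizes inform. Against Naive-like cells, Hspa1a differed by 4.22 on the arrays with the code and by 3.16 on those without it, Hsph1 by 3.21 and 1.497, Dnajb1 by 2.04 and 1.96, and Hspd1 by 1.73 and 1.77. On the 6 arrays without the code, with 2 per subset, 5 members remained past the threshold in each comparison, beside 1.65% of all genes called higher against Naive-like and 1.87% against Type-1 cells. These were Hspa1a, Hspa1b, Dnajb1, Hspa13 and Hspd1 against Naive-like cells, and Hspa4l, Dnajb1, Hsp90aa1, Hspa13 and Hspd1 against Type-1 cells. Leaving out IEL replicate 3 alone left 8 of the members called against Type-1 cells, beside 2.29% of all genes called higher.

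Promoter sequences of 38 members were found in RefSeq's table for GRCm38.p6, as windows from 250 bases before to 50 bases after a gene's start. The windows were searched on both strands for a heat shock element of 3 units, GAA, TTC and GAA with 2 bases of any kind between neighbours, and for its 2-unit forms, GAA then TTC or TTC then GAA with the same spacing, which the 3-unit form contains. They were also searched for the ER stress element, CCAAT and CCACG with 9 bases of any kind between. The 3-unit element stood in 5 of the 38 members, namely Chordc1, Dnajb6, Hspd1, Hspe1 and Hsph1, and in 0.662% of 27025 genes with a window. A 2-unit form stood in 13 of the 38 members and in 17.0% of all genes. Of the 10 members higher in IELs than in the Naive-like subset that had a window, 7 held a 2-unit form, as did 5 of the 26 members measured but not called. The 7 are not separate sequences, since they include the near copies Hspa1a and Hspa1b and the overlapping windows of Hspd1 and Hspe1. The ER stress element stood in 6 members, Calr, Canx, Dnajc3, Hsp90b1, Hspa5 and Pdia6, none of which was called in either comparison with IELs, and in 0.137% of all genes. A second ER form, ATTGG and CCACG with 1 base between, stood in Dnajb11 and in 0.0444% of all genes. A match gives only the letters, and binding was not measured.

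For the 3 cytosolic members and the mitochondrial member with the largest differences from Naive-like cells, the stretch is given here from 250 bases before to 30 bases after the start, 5′ to 3′ on the gene's strand, with matches to the heat shock forms in capitals. They show where the repeats lie in these genes only. Dnajb1, Hspa4l and Hspa2, also higher than in the Naive-like subset, held no heat shock form in their windows and are not shown. The differences of Dnajb1 and Hspa4l from Type-1 cells exceeded that of Hsph1. Hspa8, Hsp90aa1 and Hspa13, also called, had no window. Hspa1a lies on chr17:34972127-34972406 and Hspa1b on chr17:34959209-34959488, both on the minus strand, and each holds a 2-unit form that begins at position -104, counted back from the start. The windows of these neighbouring genes had the same base at 296 of 300 positions.
Hspa1a: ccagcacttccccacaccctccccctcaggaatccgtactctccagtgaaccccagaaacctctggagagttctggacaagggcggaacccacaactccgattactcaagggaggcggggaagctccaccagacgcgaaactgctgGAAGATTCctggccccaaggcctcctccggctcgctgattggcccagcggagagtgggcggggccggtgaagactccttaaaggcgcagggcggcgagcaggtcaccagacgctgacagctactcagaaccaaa
Hspa1b: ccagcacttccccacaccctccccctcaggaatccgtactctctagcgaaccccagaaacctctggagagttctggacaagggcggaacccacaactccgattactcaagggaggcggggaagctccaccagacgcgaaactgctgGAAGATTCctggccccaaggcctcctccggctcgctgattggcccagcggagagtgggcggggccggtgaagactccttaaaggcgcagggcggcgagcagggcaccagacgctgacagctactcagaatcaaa

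Hsph1, shown by the second of its 2 windows, on the minus strand at chr5:149636286-149636565, holds a 2-unit form before its start and a 3-unit element that begins at base 16 of the transcript.
Hsph1: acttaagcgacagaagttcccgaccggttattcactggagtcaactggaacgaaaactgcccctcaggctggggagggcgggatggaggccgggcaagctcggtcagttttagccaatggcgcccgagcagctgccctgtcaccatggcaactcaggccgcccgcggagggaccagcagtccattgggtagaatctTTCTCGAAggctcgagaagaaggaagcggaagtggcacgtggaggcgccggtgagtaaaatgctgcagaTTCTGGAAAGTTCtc

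Hspd1, also shown by its second window, on the minus strand at chr1:55087903-55088182, and Hspe1 start from the same stretch in opposite directions, and 285 bases of this Hspd1 window lie in the Hspe1 window. In it, overlapping 3-unit elements form a run of 4 units, which both genes share.
Hspd1: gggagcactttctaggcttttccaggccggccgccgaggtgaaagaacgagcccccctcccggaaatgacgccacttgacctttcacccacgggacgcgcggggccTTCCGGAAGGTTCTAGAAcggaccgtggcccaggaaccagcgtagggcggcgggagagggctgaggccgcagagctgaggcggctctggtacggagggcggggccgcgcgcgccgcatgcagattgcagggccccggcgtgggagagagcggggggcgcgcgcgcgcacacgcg

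A pair of members that did not pass the test against either lymph node subset was chosen for comparison after the values were seen. Chordc1, on the plus strand at chr9:18292017-18292296, carries overlapping 3-unit elements across its start. Hspa5, on the plus strand at chr2:34771840-34772119, holds no heat shock form in its window, and the capitals mark an ER stress element.
Chordc1: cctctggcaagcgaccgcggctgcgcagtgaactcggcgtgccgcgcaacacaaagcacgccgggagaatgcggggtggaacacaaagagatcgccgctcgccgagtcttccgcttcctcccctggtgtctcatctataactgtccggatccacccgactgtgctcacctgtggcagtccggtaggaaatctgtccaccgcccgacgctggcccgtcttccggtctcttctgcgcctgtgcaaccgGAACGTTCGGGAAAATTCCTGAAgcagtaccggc
Hspa5: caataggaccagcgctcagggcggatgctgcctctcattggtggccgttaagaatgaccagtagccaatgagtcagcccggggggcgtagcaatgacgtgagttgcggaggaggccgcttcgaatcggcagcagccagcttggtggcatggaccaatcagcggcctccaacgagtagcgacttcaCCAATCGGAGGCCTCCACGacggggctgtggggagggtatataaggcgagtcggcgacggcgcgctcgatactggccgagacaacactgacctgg

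The largest differences lay in the Hsp70 and Hsp110 genes of the cytosol. Of 8 measured, 6 were higher in IELs than in the Naive-like subset and 6 than in Type-1 cells, with median differences of 1.70 and 1.75. Hspa1a encodes a heat-inducible Hsp70. Its values were 12.19, 12.44 and 11.998 in IELs, 8.54, 9.78 and 7.77 in Naive-like cells and 10.80, 9.38 and 9.20 in Type-1 cells. All IEL arrays were above all lymph node arrays, and the lymph node arrays spread over 3 log2 units. Hspa1a was 3.51 ± 0.48 (SE) higher in IELs than in the Naive-like subset, or 11.4-fold (95% interval 5.51 to 23.7, limma adjusted p = 0.00069), and 2.42 ± 0.48 higher than in Type-1 cells (adjusted p = 0.011). The second call was lost without IEL replicate 2 (adjusted p = 0.055).

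Hspa1b, its neighbour and near copy, read 11.44, 10.96 and 11.27 in IELs, 8.17, 8.99 and 6.80 in Naive-like cells and 9.63, 8.30 and 7.61 in Type-1 cells. The IEL arrays again lay above the rest without overlap. Differences were 3.23 ± 0.54 against Naive-like cells (9.40-fold, limma adjusted p = 0.0029) and 2.71 ± 0.54 against Type-1 cells (adjusted p = 0.010). Probes may not separate Hspa1a from Hspa1b, so these 2 rows may not be independent measurements. A row that carries both symbols was not used.

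Hspa2, an Hsp70 known best from the testis, read 6.00, 6.69 and 7.04 in IELs, 4.84, 4.70 and 4.25 in Naive-like cells and 5.52, 4.86 and 4.66 in Type-1 cells. No lymph node array reached an IEL array. It was 1.98 ± 0.30 higher than in the Naive-like subset (limma adjusted p = 0.0016) and 1.56 ± 0.30 higher than in Type-1 cells (adjusted p = 0.0092, and 0.052 without IEL replicate 3).

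Hspa8 encodes the constitutive Hsp70 of the cytosol. It read 11.13, 11.34 and 11.16 in IELs, 10.18, 10.30 and 10.14 in Naive-like cells and 10.54, 10.34 and 10.44 in Type-1 cells. Its arrays differed little within a subset, with SDs of 0.11, 0.08 and 0.10. The difference was 1.00 ± 0.18 against Naive-like cells, or 2.00-fold (limma adjusted p = 0.0042). Against Type-1 cells it was 0.77 ± 0.18 (adjusted p = 0.024), a call lost without IEL replicate 2, IEL replicate 3 or Type-1 replicate 2 (adjusted p = 0.11, 0.073 and 0.093). The other 3 rows of Hspa8 were also higher in IELs than in the Naive-like subset, by 0.87 to 1.67, with adjusted p = 0.076 to 0.16 in a fit of all rows. With the mean of the rows, the difference from Type-1 cells was 1.14 (adjusted p = 0.071). On the second of them IEL replicate 1 read 9.02 and the other IEL arrays 6.89 and 7.15.

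Hsph1 and Hspa4l encode Hsp110-type proteins, which exchange nucleotide on Hsp70. Hsph1 read 9.66, 10.38 and 11.22 in IELs, 8.46, 8.59 and 8.01 in Naive-like cells and 8.83, 8.10 and 8.50 in Type-1 cells. Its SD of 0.78 among IEL arrays was the widest of any member in that subset, and the groups still did not overlap. The differences were 2.07 ± 0.35 against Naive-like cells (limma adjusted p = 0.0031) and 1.94 ± 0.35 against Type-1 cells (adjusted p = 0.0051).

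Hspa4l read 6.89, 7.21 and 7.84 in IELs, 6.08, 5.62 and 5.95 in Naive-like cells and 4.95, 4.76 and 5.99 in Type-1 cells. It was 2.08 ± 0.33 higher in IELs than in Type-1 cells (limma adjusted p = 0.0023). Its difference from Naive-like cells was 1.43 ± 0.33 (adjusted p = 0.023), and this call was lost when IEL replicate 2 or 3 or any Naive-like array was left out (adjusted p = 0.054 to 0.11), or array medians subtracted (0.053). The remaining members of the group, Hspa4 and Hspa14, differed by 0.33 and 0.37 from Naive-like cells and passed in neither comparison.

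**Figure D2:**
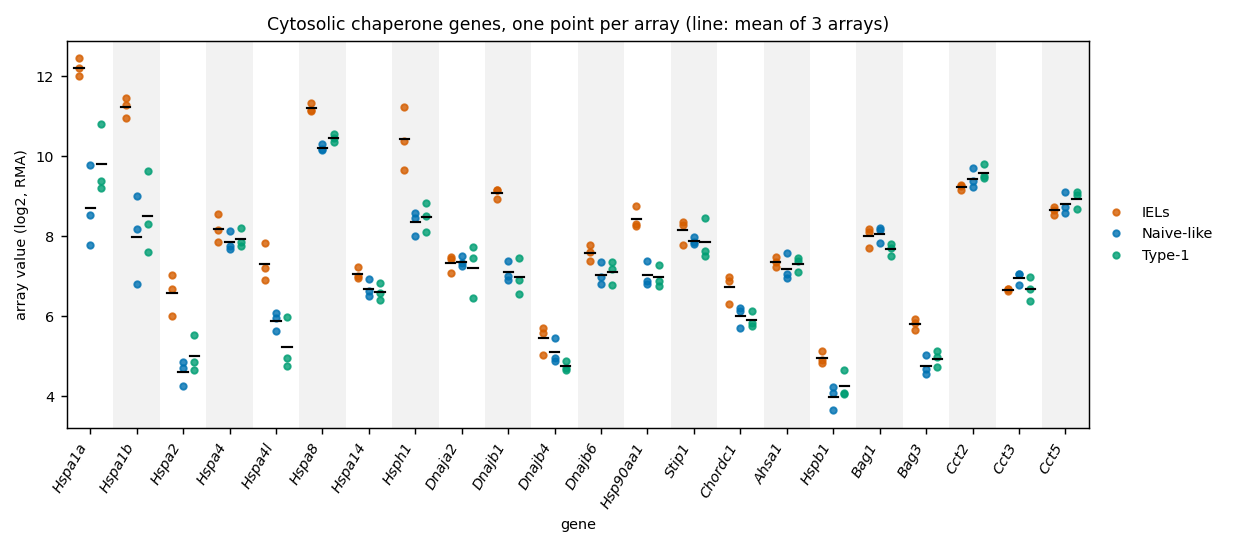
Log2 array values (y axis) of the 22 measured cytosolic chaperone genes (x axis), with 1 point per array coloured by subset and a line at the mean of 3 arrays. The IEL points of Hspa1a, from 11.998 to 12.44, sit above every lymph node point, while those of Cct2 and Cct3 sit at or below most of them.

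Among the J-domain proteins, which bring substrates to Hsp70 and start its ATPase, 1 of 4 was higher in each comparison with IELs. Dnajb1, the heat-inducible partner of Hspa1a, read 9.16, 9.15 and 8.94 in IELs, 7.00, 7.38 and 6.89 in Naive-like cells and 7.45, 6.56 and 6.90 in Type-1 cells. Every IEL array was above every lymph node array by more than 1 log2 unit. The differences were 1.99 ± 0.24 against Naive-like cells (3.97-fold, limma adjusted p = 0.00028) and 2.11 ± 0.24 against Type-1 cells (4.33-fold, adjusted p = 0.00021). Dnajb1 kept both calls in all 22 alternatives. Its windows held none of the motifs searched. Dnaja2, Dnajb4 and Dnajb6 ranged from -0.03 to 0.55 against Naive-like cells and from 0.11 to 0.70 against Type-1 cells, with no call.

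Of the Hsp90 group, 1 of 4 measured genes was higher in each comparison with IELs. Hsp90aa1 encodes the inducible cytosolic Hsp90. It read 8.29, 8.75 and 8.25 in IELs, 6.88, 7.38 and 6.80 in Naive-like cells and 7.28, 6.76 and 6.88 in Type-1 cells. The groups did not overlap, and it was 1.41 ± 0.24 higher than in the Naive-like subset (limma adjusted p = 0.0030) and 1.46 ± 0.24 higher than in Type-1 cells (adjusted p = 0.0026). Its cochaperones did not pass in this fit. Chordc1, an Hsp90-binding protein with the repeats shown above, differed by 0.71 ± 0.23 from Naive-like cells (adjusted p = 0.13) and 0.81 ± 0.23 from Type-1 cells (adjusted p = 0.075). With the date code as a term, or without IEL replicate 2, Chordc1 passed against Type-1 cells (adjusted p = 0.046 and 0.043). Stip1, which links Hsp70 to Hsp90, and Ahsa1, which activates the Hsp90 ATPase, differed by 0.04 to 0.28.

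In the group of small heat shock and BAG proteins, Hspb1 and Bag3 were higher in IELs than in the Naive-like subset and Bag3 was higher than in Type-1 cells, out of 3 measured. Bag3 encodes a nucleotide exchange factor that sends Hsp70 clients to autophagy. It read 5.65, 5.83 and 5.92 in IELs, 4.55, 5.03 and 4.69 in Naive-like cells and 4.97, 5.13 and 4.72 in Type-1 cells, without overlap. It differed by 1.04 ± 0.20 from Naive-like cells (limma adjusted p = 0.0081, and 0.051 without Naive-like replicate 1). The difference from Type-1 cells was 0.86 ± 0.20 (adjusted p = 0.029), and it lost its call without IEL replicate 2 or 3 or Type-1 replicate 1 or 3 (adjusted p = 0.069 to 0.12).

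Hspb1 encodes a small heat shock protein that holds unfolded chains without ATP. It read 5.13, 4.91 and 4.84 in IELs, 4.09, 3.65 and 4.23 in Naive-like cells and 4.66, 4.08 and 4.05 in Type-1 cells. Its mean over all arrays, 4.40, lay below the median of 4.52 for all gene means. It was 0.97 ± 0.23 higher than in the Naive-like subset (limma adjusted p = 0.029) and differed by 0.70 ± 0.23 from Type-1 cells (adjusted p = 0.13). The first call was lost when any IEL array, or Naive-like replicate 1 or 2, was left out (adjusted p = 0.067 to 0.13). A second row of Hspb1 gave a difference of 0.08 ± 0.26 from Naive-like cells (adjusted p = 0.96), so the rows of this gene disagreed, and the mean of its rows lost the call (0.53, adjusted p = 0.25). Bag1 differed by -0.06 and 0.33 in these comparisons.

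The cytosolic chaperonin folds actin, tubulin and other proteins in a closed chamber and is not a classic heat shock gene set. None of its 3 subunits among the members was called by limma. None of the 3 had an unadjusted p under 0.05. Over all genes, 14.2% did so against Naive-like and 16.3% against Type-1 cells. All 3 differences were below 0 in each comparison with IELs, from -0.29 to -0.16 against Naive-like cells and from -0.36 to -0.02 against Type-1 cells. The subunits outside the members, Cct4, Cct6a, Cct7, Cct8 and Tcp1, lay on both sides of 0 without a call. Their differences ran from -0.25 to 0.13 against Naive-like cells and from -0.28 to 0.15 against Type-1 cells. Cct2 read 9.28, 9.16 and 9.24 in IELs, 9.38, 9.24 and 9.70 in Naive-like cells and 9.51, 9.46 and 9.80 in Type-1 cells. Cct3 read 6.62, 6.69 and 6.68 in IELs, 6.78, 7.04 and 7.04 in Naive-like cells and 6.37, 6.68 and 6.99 in Type-1 cells. Cct2 in IELs lay below all Type-1 arrays (difference -0.36, 95% interval -0.79 to 0.07), and Cct3 in IELs lay below all Naive-like arrays (-0.29, -0.73 to 0.15). Over all genes, 9.78% and 9.25% lay lower without overlap in these comparisons.

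All 10 measured ER chaperones had a higher mean in IELs than in each lymph node subset, but few passed the test. Over all genes, 49.2% had a difference above 0 against Naive-like cells and 45.8% against Type-1 cells. The differences ran from 0.13 to 1.27 against Naive-like and from 0.01 to 1.34 against Type-1 cells. In 6 and 7 of the 10 the IEL arrays lay above the other group without overlap, as in 10.9% and 10.0% of all genes.

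Hspa13, also known as Stch, encodes a microsome-associated Hsp70-like protein and was the member of this group with the largest difference in each comparison. It read 5.34, 4.77 and 4.59 in IELs, 3.69, 3.58 and 3.63 in Naive-like cells and 3.70, 3.31 and 3.68 in Type-1 cells. The IEL arrays stood apart, by 1.27 ± 0.23 from Naive-like cells (2.40-fold, limma adjusted p = 0.0046) and 1.34 ± 0.23 from Type-1 cells (2.53-fold, adjusted p = 0.0035). Its mean over all arrays, 4.03, lay under the 40th percentile of gene means, where the file gives no stated background.

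Dnajb9, a J-domain protein of the ER lumen raised in the unfolded protein response, read 9.09, 8.43 and 8.997 in IELs, 7.82, 8.55 and 7.93 in Naive-like cells and 8.01, 7.26 and 7.67 in Type-1 cells. Naive-like replicate 2 lay above 1 of the IEL arrays, and all Type-1 arrays lay below them. It was 1.19 ± 0.27 higher in IELs than in Type-1 cells (limma adjusted p = 0.024) and differed by 0.74 ± 0.27 from Naive-like cells (adjusted p = 0.20). The call was lost without IEL replicate 1, IEL replicate 3 or Type-1 replicate 2 (adjusted p = 0.075, 0.11 and 0.099), and under quantile normalization again and cyclic loess (adjusted p = 0.059 and 0.051).

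Hspa5, the main Hsp70 of the ER, differed by 0.64 ± 0.21 from Naive-like cells (limma adjusted p = 0.13) and by 0.74 ± 0.21 from Type-1 cells (adjusted p = 0.071). Its IEL values, 8.62 to 9.01, lay above the 7.93 to 8.53 of the lymph node arrays. Pdia6, a disulfide isomerase, differed by 0.91 ± 0.25 from Naive-like cells (adjusted p = 0.062). Hsp90b1, the ER Hsp90, and the lectin chaperones Calr and Canx differed by 0.46, 0.36 and 0.31 from Naive-like cells, without a call.

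**Figure D3:**
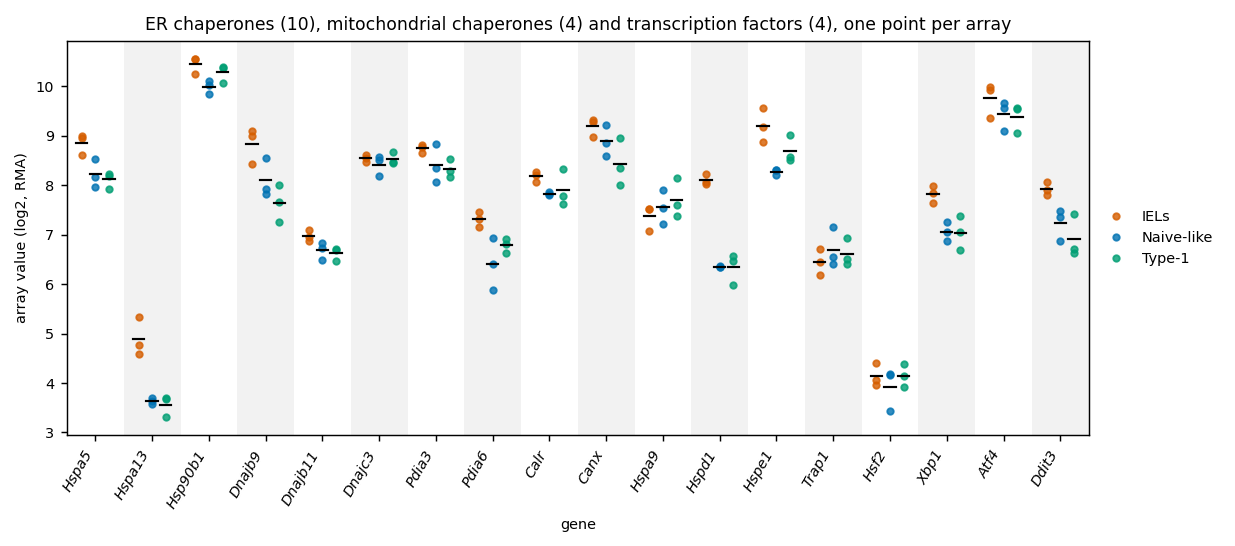
Log2 array values (y axis) of the 10 ER chaperones, 4 mitochondrial chaperones and 4 transcription factors (x axis), with 1 point per array coloured by subset and a line at the mean of 3 arrays. The IEL points of Hspd1, from 8.03 to 8.23, sit above the lymph node points, whereas the points of Hspa9 and Trap1 overlap.

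The mitochondrial members divided by gene. Hspd1 and Hspe1 encode Hsp60 and its lid Hsp10, which together form the folding chamber of the mitochondrial matrix. Hspd1 read 8.03, 8.23 and 8.07 in IELs, 6.34, 6.38 and 6.34 in Naive-like cells and 6.48, 5.97 and 6.57 in Type-1 cells. The SD was 0.02 among Naive-like arrays, and no lymph node array came within 1 log2 unit of an IEL array. The differences were 1.76 ± 0.20 against Naive-like cells (3.38-fold, limma adjusted p = 0.00018) and 1.77 ± 0.20 against Type-1 cells (3.41-fold, adjusted p = 0.00019), which passed in all 22 alternatives.

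Hspe1 read 9.57, 8.87 and 9.18 in IELs, 8.21, 8.31 and 8.31 in Naive-like cells and 9.01, 8.52 and 8.57 in Type-1 cells. IELs lay above all Naive-like arrays and overlapped the Type-1 arrays, among which replicate 1 was highest. It was 0.93 ± 0.22 higher than in the Naive-like subset (limma adjusted p = 0.030) and differed by 0.51 ± 0.22 from Type-1 cells (adjusted p = 0.28). The call was lost without IEL replicate 1 or 3 or any Naive-like array (adjusted p = 0.082 to 0.12), and after array medians were subtracted or quantiles normalized again (adjusted p = 0.055 and 0.067). The shared stretch of both genes went with differences of 1.76 and 0.93 against Naive-like cells, and the difference between these values was not tested.

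Hspa9, the mitochondrial Hsp70, and Trap1, the mitochondrial Hsp90, had differences below 0. Hspa9 differed by -0.18 (95% interval -0.74 to 0.37) from Naive-like cells and by -0.34 (-0.89 to 0.22) from Type-1 cells. For Trap1 the values were -0.25 (-0.79 to 0.30) and -0.17 (-0.71 to 0.37).

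Of the transcription factors, Ddit3, also called CHOP and raised by ER stress, read 7.90, 8.06 and 7.81 in IELs, 6.88, 7.48 and 7.36 in Naive-like cells and 7.42, 6.72 and 6.64 in Type-1 cells. The IEL arrays did not overlap the others. It was 1.00 ± 0.25 higher than in Type-1 cells (limma adjusted p = 0.036) and differed by 0.69 ± 0.25 from Naive-like cells (adjusted p = 0.18). That call was lost when any IEL array, Naive-like replicate 3, or Type-1 replicate 2 or 3 was left out (adjusted p = 0.053 to 0.14), and under quantile normalization again and cyclic loess (adjusted p = 0.090 and 0.077). Xbp1, which drives many ER chaperone genes, differed by 0.76 ± 0.22 and 0.79 ± 0.22 (adjusted p = 0.075 and 0.064), with all IEL arrays above the rest. Atf4 differed by 0.31 and 0.38.

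Hsf2 was the only heat shock factor measured. Its values were 3.97, 4.06 and 4.41 in IELs, 4.16, 3.43 and 4.19 in Naive-like cells and 4.39, 4.14 and 3.92 in Type-1 cells. The 3 subsets overlapped, and its mean of 4.07 lay under the 40th percentile of gene means. Differences in IELs were 0.23 (95% interval -0.31 to 0.76) against Naive-like and 0.00 (-0.54 to 0.54) against Type-1 cells.

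Type-1 and Naive-like cells, which share a tissue and the way of release, differed by -0.65 to 1.10 in the 40 members. Hspa1a had the highest difference, 1.10 ± 0.48 (unadjusted p = 0.042, limma adjusted p = 0.74), and Hspa4l the lowest, -0.65 ± 0.33 (adjusted p = 0.80). The upper end of the 95% interval was below 1 in 37 of the 40 members. The same held for 22 of 22 other cytosolic, 22 of 24 other ER and 15 of 18 immediate early genes, lists described below. The count is therefore not particular to the members. For Hspd1 the interval ran from -0.45 to 0.43, for Dnajb1 from -0.65 to 0.41 and for Hsp90aa1 from -0.56 to 0.47. The intervals of Hspa1a and Hspa1b, 0.05 to 2.15 and -0.64 to 1.69, leave room for larger differences. Hspa2 reached 1.08 at its upper end, and the lower ends of Hspa4l, Dnajb9 and Canx were -1.37, -1.05 and -1.02.

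Hspa1b varied most among the lymph node arrays. It had an SD of 1.11 among Naive-like and 1.03 among Type-1 arrays, the highest of the 40 members in each, against medians of 0.26 and 0.28. Among IELs its SD was 0.24. Of the 13 members higher in IELs than in the Naive-like subset, Type-1 replicate 1 was the highest Type-1 array in 10 and Naive-like replicate 2 the highest Naive-like array in 9. Over all 40 members these counts were 21 and 19, and over all genes those arrays were the highest of their subset in 36.7% and 32.3%. The numbers in the sample descriptions were grouped here into runs of neighbouring numbers, which the labels do not name. By this grouping, Type-1 replicate 1 and Naive-like replicate 2 fall in 1 run with IEL replicate 1. That IEL array was the highest IEL array in 5 of the 13 and the lowest in 6.

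Outside the 44 members, the shares called among other chaperone genes of the cytosol and the mitochondria lay near those of all genes, 3.57% higher against Naive-like and 3.73% against Type-1 cells. Of 22 other cytosolic chaperone and heat response genes measured, 1 was higher in IELs than in the Naive-like subset, Dnajb2 by 0.99 ± 0.22 (limma adjusted p = 0.019). Against Type-1 cells 1 was higher, Hmox1, which encodes a haem-degrading enzyme of the oxidative stress response, by 0.93 ± 0.23 (adjusted p = 0.037). The medians of this list were 0.08 and 0.02. Of 8 other mitochondrial chaperones and proteases none was called in either comparison by limma, with unadjusted p under 0.05 in 1 and 0 and medians of 0.04 and 0.08.

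Part of the other ER genes was higher in IELs. Of 24 measured genes of ER folding, ER-associated degradation and the unfolded protein response, 3 were higher in IELs than in the Naive-like subset and 9 than in Type-1 cells, with 0 lower and medians of 0.44 and 0.47, beside 3.57% and 3.73% of all genes called higher. Sdf2l1, part of an ER chaperone complex, was higher by 1.52 ± 0.30 and 1.48 ± 0.30 (limma adjusted p = 0.0085 and 0.011). Atf3, a stress-induced factor, was higher by 1.39 ± 0.20 and 1.00 ± 0.20 (adjusted p = 0.00098 and 0.011), and Serp1 by 0.95 ± 0.25 and 1.06 ± 0.25 (adjusted p = 0.047 and 0.027). Atf3 is also on the list of immediate early genes below, so the counts of both lists include it. Against Type-1 cells, the ER stress sensors Ern1 and Eif2ak3 were higher by 1.71 ± 0.35 and 1.42 ± 0.30 (adjusted p = 0.011 and 0.015). From Naive-like cells these sensors differed by 0.38 ± 0.35 and 0.97 ± 0.30 without a call (limma adjusted p = 0.76 and 0.10). In Type-1 against Naive-like cells, Ern1 differed by -1.34 ± 0.35 and Eif2ak3 by -0.45 ± 0.30 (limma adjusted p = 0.26 and 0.88). None of the 24 was called between the lymph node subsets. There, 3 of the 24 had an unadjusted limma p under 0.05, against 6.48% of all genes. These were Ern1, Edem1 and Dnajc10, each with a difference below 0 in Type-1 against Naive-like cells.

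Many markers of gut epithelium and part of the immediate early genes were also higher on the IEL arrays. Among all genes, 3.57% were called higher in IELs than in the Naive-like subset and 3.73% than in Type-1 cells. Of 16 measured markers of enterocytes and general epithelium, 11 were higher in IELs than in the Naive-like subset and 10 than in Type-1 cells. The log2 of their summed level was 10.24 to 11.11 in IELs, 8.44 to 8.63 in Naive-like cells and 8.49 to 8.56 in Type-1 cells. Fabp2, a fatty acid-binding protein of enterocytes, was higher by 3.94 ± 0.36 and Cdh1, which some IELs also express, by 3.71 ± 0.37 than in the Naive-like subset (limma adjusted p = 2.7e-05 and 5.5e-05). Of 12 goblet and Paneth cell markers 9 were higher in each comparison, with summed levels of 9.85 to 10.81 in IELs against 7.43 to 7.76 on the lymph node arrays. No defining marker can be given as absent, since the values have no stated background. Immediate early genes are switched on within minutes of a stimulus or handling. Of 18 such genes, 7 were higher and 1 lower than in the Naive-like subset, and 8 higher and 1 lower than in Type-1 cells. Among all genes, 1.62% and 1.41% were called lower. Egr3 differed by -1.03 from Naive-like cells and Dusp2 by -1.18 from Type-1 cells (limma adjusted p = 0.044 and 0.038). In all, 5 and 4 of the 18 differences lay below 0. The summed level of the 18 was 12.80 to 13.58 in IELs, 11.73 to 12.29 in Naive-like and 11.34 to 12.33 in Type-1 cells. 

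Relative to the mean of Naive-like cells, the cytosolic chaperones stood on average at 0.86, 0.91 and 1.05 in IEL replicates 1, 2 and 3, and the ER chaperones at 0.57, 0.53 and 0.52. The enterocyte and epithelial list stood at 1.52, 2.06 and 1.27 and the immediate early genes at 0.47, 0.94 and 0.94. IEL replicate 1 was lowest for the cytosolic chaperones and for the immediate early genes, and IEL replicate 3 was lowest for the epithelial list. The cytosolic means lay close together, and with 3 arrays their order is a description from which nothing is read.

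**Figure D4:**
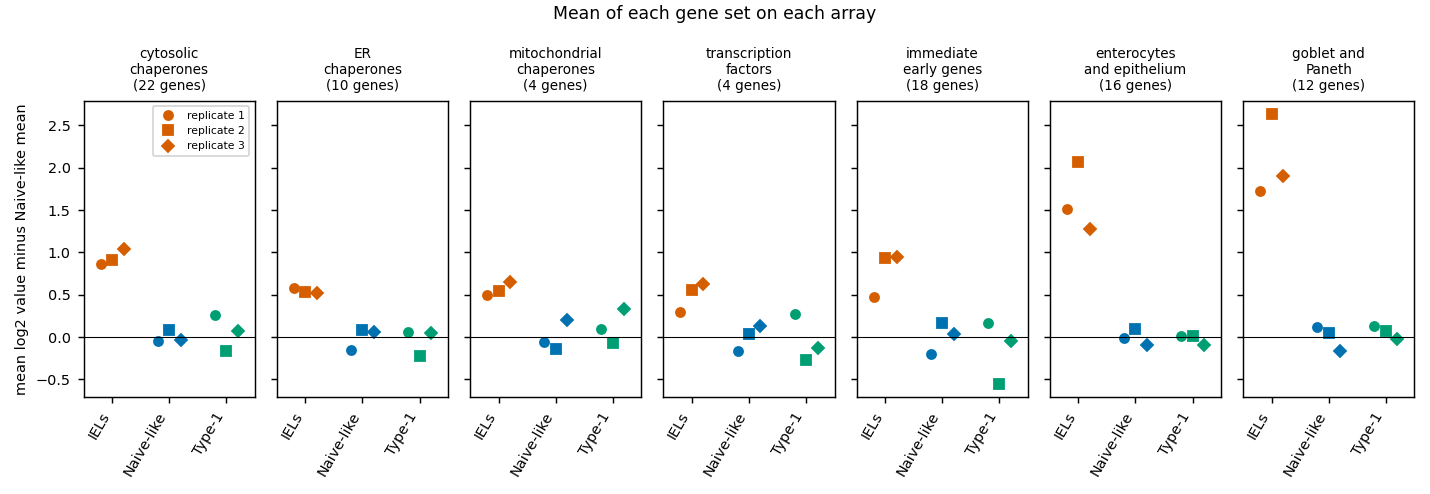
Mean log2 value of each gene set on each array minus its mean over the Naive-like arrays (y axis), with subsets on the x axis and replicates 1, 2 and 3 as circles, squares and diamonds. Cytosolic chaperones lie between 0.86 and 1.05 in IELs and between -0.16 and 0.26 on the lymph node arrays, and the epithelial sets are highest in IEL replicate 2.

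Markers of T cells and of other blood cells were counted in the same way. Of 6 T-cell markers, 0 were called against Naive-like cells and 2 were higher than in Type-1 cells, beside 3.73% of all genes. These were Cd3g by 0.99 ± 0.23 and Zap70 by 1.05 ± 0.25 (limma adjusted p = 0.027 and 0.030). In each comparison 4 of the 6 differences lay above 0 and 2, Ptprc and Lat, below. Of 8 B and plasma cell markers none was called in a comparison with IELs by limma, and 0 and 1 had an unadjusted p under 0.05. Of 9 myeloid markers 2 were higher in each comparison with IELs, beside 3.57% and 3.73% of all genes. These were Fcgr3, an Fc receptor, by 1.95 ± 0.25 and 1.64 ± 0.25 (limma adjusted p = 0.00038 and 0.0016), and Itgam, an integrin chain, by 0.82 ± 0.21 and 0.94 ± 0.21 (adjusted p = 0.045 and 0.022). In each comparison 5 of the 9 differences lay above 0 and 4 below, with medians of 0.04 against Naive-like and 0.06 against Type-1 cells. The summed level of the 9 was 7.97 to 8.21 in IELs, 7.26 to 7.72 in Naive-like and 7.38 to 7.88 in Type-1 cells. The part of such cells in the chaperone differences was not tested.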

How the data were processed

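RNA of 3 subsets of γδ T cells was measured on 9 arrays, 3 per subset, grouped by title. The authors deposited log2 values of 41345 rows, made by RMA in the package oligo, per the submitters' processing notes. RMA scales arrays to each other and compresses differences of dim genes. The medians of the arrays in the values used here still ran from 4.25 to 4.43. Filters and detection calls are not named by these sources. Gene symbols came from the platform's annotation. Only the 23521 rows with 1 symbol were used, as 22180 genes by their row of highest mean, and 0 columns of other samples were present.

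Differences were fitted with limma 3.58.1 in R 4.3.3 (1 mean per subset over 9 arrays, eBayes with 6 residual and 6 prior degrees of freedom), two-sided, and p-values were adjusted by Benjamini and Hochberg's method across the 22180 genes. The median SE of a difference was 0.24, and the number of arrays limits the precision. The fit was tested on simulated data. Correlations over genes were 0.947 to 0.982 within a subset and 0.912 to 0.975 between subsets. Promoters came from RefSeq's GRCm38.p6 table. The files name no build. Python 3.11.15, pandas 2.3.3, numpy 2.4.6 and matplotlib 3.10.9 were used.

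The members and all lists were chosen with earlier results of these data known. Values per array are given for up to 6 called members of each of the 9 member lists, or for the 2 of smallest unadjusted p where none was called, and up to 3 called genes are named per further list and direction. Marker genes named and the genes shown for comparison were chosen after their values were seen.

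Each result was recomputed without genes in the lowest 40 percent of means, with 3 other scalings (median centring, a further quantile step, cyclic loess), with limma's trended robust prior or its array weights, and with a gene's rows averaged or fitted singly. Further fits held just the compared subsets, a block for replicate number or run of description numbers, a term for the date code, only arrays lacking it, or all arrays but 1.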

Additional observations from a re-analysis of the deposited data

How the results depend on the processing

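No member result that passed in the main fit or in an alternative changed sign between them, over the 22 alternatives. Of 2634 comparisons of a member's result with an alternative, 2554 kept their side of the threshold, 63 fell short of it and 17 newly passed it. They include Type-1 against Naive-like cells, where no member was called. For results that passed in neither fit the sign was not compared. Hspa1a, Hspa1b, Dnajb1 and Hspd1 against Naive-like cells, and Hspa4l, Dnajb1, Hsp90aa1 and Hspd1 against Type-1 cells, passed in all 22. Hspa13 passed in the 21 that held it, since it and Hsf2 have no value under the filter on dim genes. Array weights, lowest for IEL replicate 1 (0.441), newly called Hspa5, Hsp90b1, Pdia6, Xbp1 and Ddit3 against Naive-like cells, and Hspa5 and Xbp1 against Type-1 cells. A fit of only IELs and Type-1 cells lost Hspa8, Bag3 and Ddit3 (adjusted p = 0.067, 0.054 and 0.062), and subtracted array medians lost Hspb1 against Naive-like cells (0.050). Of 264 comparisons of a compartment's median, 6 moved by more than the spread between replicates.

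Called members numbered 13 in each comparison with IELs. On the 6 arrays without the date code they numbered 5 and 5, with fewer arrays per subset. Without 1 array they ranged from 9 (without Naive-like replicate 1) to 13 against Naive-like and from 8 (without IEL replicate 3) to 13 against Type-1 cells. Between the lymph node subsets they stayed at 0 throughout, from 0 to 0. Over all genes, 1152 were called for IELs against Naive-like, 63 for Type-1 against Naive-like and 1140 for IELs against Type-1 cells. On the arrays without the date code these were 534, 20 and 565, and with array weights the first was 1920, for which the cause was not tested. Without 1 array they ranged from 826 to 1227, from 34 (without Naive-like replicate 3) to 87, and from 724 (without IEL replicate 3, and 732 without replicate 2) to 1308.

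Same-numbered arrays correlated at -0.02 to 0.38 in their deviations from the subset means, and 6 of 9 arrays were closest to their own number. For the runs of description numbers the values were 0.07 to 0.38 and 9 of 9. The replicate 3 arrays form the same group in both, and the main fit held neither as a block. With the replicate number as a block 13, 0 and 13 members were called, and with the runs 14, 0 and 14, Dnajb9 being added against Naive-like cells (adjusted p = 0.037) and Chordc1 against Type-1 cells (adjusted p = 0.031). Over all genes the numbers gave 1378, 81 and 1405 calls and the runs 1397, 82 and 1452. Without detection calls, differences of the dimmest members have no stated background.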
